A study of Homo sapiens with 8 samples.

Results

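ADAMTS1, C1orf116, CHRNA2, CAPN5, KCNN2, HS3ST1 and AADAT are 7 genes whose RNA was far lower in LNCaP-FGC cells after 24 h with A-485, or with A-485 and I-CBP112 together, than with DMSO. They were chosen on those measured falls from the 11867 genes that could be tested in the same libraries, so their values in these 2 comparisons are given as a description with no test. All 7 passed the filter on low values, and they hold 31 of the 74209 transcripts matched to a gene. LNCaP-FGC is an established, androgen dependent line of human prostate cancer cells. Cells received both inhibitors, A-485 alone, I-CBP112 alone, or the solvent DMSO, and each group was sequenced as 2 libraries, replicate 1 and replicate 2. The sources used here give neither the doses nor whether the 2 libraries of a group came from separate cultures, so the errors and p-values measure the spread between these libraries, which may be technical. All results come from this 1 line. Levels are FPKM, fragments counted relative to transcript length and library size, summed over the transcripts of a gene and scaled between libraries, so they are comparable between genes per length.

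p300 and CBP are related coactivators that transcription factors recruit to enhancers and promoters, where they acetylate histones and other proteins. A-485 blocks the catalytic acetyltransferase site of both, and I-CBP112 binds their bromodomain, the pocket that reads acetylated lysine. The 7 genes have unrelated protein products. ADAMTS1 is a secreted metalloprotease that cuts proteoglycans of the extracellular matrix, and CAPN5 is a calpain, a cysteine protease that acts inside cells. CHRNA2 is a subunit of nicotinic acetylcholine receptors, and KCNN2 is a small-conductance potassium channel opened by calcium through calmodulin. HS3ST1 adds sulfate to the 3-O position of heparan sulfate chains. AADAT is a mitochondrial aminotransferase of lysine and kynurenine breakdown. C1orf116 encodes a little studied protein.

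The 7 genes were put together as strongly falling genes outside the classical androgen panels, and that name does not hold for C1orf116. RefSeq lists SARG as its other symbol, which stands for specifically androgen-regulated gene. Whether the name holds for the other genes was not checked. Androgen was not varied in these libraries, so whether any of the 7 follows it was not measured here. The genes lie on chromosomes 21 (ADAMTS1), 1 (C1orf116), 8 (CHRNA2), 11 (CAPN5), 5 (KCNN2) and 4 (HS3ST1 and AADAT).

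The libraries held between about 4450000 and 28400000 assigned fragments, estimated from the worth of 1 fragment. In A-485, I-CBP112 and DMSO the replicate 2 library held by far the fewer assigned fragments. The estimated fragments used for normalizing differed less in these groups. In units of 1000000 and replicate 1 first, they were 31.3 and 15.8 with A-485 and 17.2 and 20.7 with I-CBP112. They were 21.4 and 20.9 with DMSO. With both they were 17.7 and 27.2, while the assigned fragments were about 17100000 and 13400000. The cause of these gaps was not tested. All 8 markers of prostate luminal cells that were looked up, among them KLK3, KRT8 and KRT18, reached 1 scaled FPKM. TP63 of basal cells and the immune genes PTPRC and CD3E were listed at 0 in every library. KRT5, also of basal cells, averaged 0.831 with both, 0.127 with A-485, 7.37 with I-CBP112 and 3.47 with DMSO, with a highest value of 14.1. The summed level of the 8 luminal markers was 2455 and 1803 with both inhibitors, 2419 and 2042 with A-485, 3399.5 and 3191 with I-CBP112 and 5276 and 4499.9 with DMSO, so that it was lower in every treated library than in either DMSO library. KLK3 made up most of that difference with both inhibitors, with means of 51.0 with both, 599.7 with A-485, 1090.5 with I-CBP112 and 2119 with DMSO. KRT8 averaged 1094 with both and 684 with A-485, against 983 with DMSO, and FOLH1 averaged 551 with I-CBP112, against 482 with DMSO, so the markers did not share 1 direction. Markers of other cells summed to between 0 and 15.6 (3 of basal cells), 14.9 and 28.0 (4 of fibroblasts and smooth muscle), 1.45 and 5.92 (3 of immune cells) and 1.43 and 4.89 (2 of neuroendocrine cells). Some of these means differed between groups, with no test given: COL1A1 averaged 10.7 with both, 9.59 with A-485, 6.04 with I-CBP112 and 3.47 with DMSO. CD68 averaged 4.95, 3.93, 2.34 and 1.67 in the same groups, and SYP averaged 4.73, 2.36, 2.14 and 1.53. COL1A2 and CHGA of the same lists were at or near 0, while ACTA2 averaged 13.6 with both, 16.6 with A-485, 14.6 with I-CBP112 and 16.8 with DMSO. The part of any of these marker genes in the levels of the 7 genes was not tested. VWF of endothelium had 1.26 and 1.02 scaled FPKM with both, 7.76 and 4.70 with A-485, 2.12 and 1.69 with I-CBP112 and 3.32 and 2.46 with DMSO. In bulk RNA, fewer cells with a transcript and less of it per cell cannot be told apart.

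RefSeq promoter windows, which run from 250 bases before to 50 after a gene's start in GRCh38.p14, were at hand for 4 of the genes, and 3 windows near the leading transcript are shown. They are given to set their letters beside the shared direction of the levels. Capitals mark CCAAT and the ETS core GGAAG, on either strand, so that they also appear as ATTGG and CTTCC. The C1orf116 window is chr1:207032707-207033006 on the minus strand and starts transcript C1orf116-202, 9 bases from the start of C1orf116-201. The KCNN2 window is chr5:114361820-114362119 on the plus strand, and its start lies 249 bases from that of KCNN2-201. The AADAT window is chr4:170089907-170090206 on the minus strand, and its start lies 11 bases from that of AADAT-201. AADAT has 2 other windows, at the starts of minor transcripts, and the HS3ST1 window starts 297 bases from the nearest HS3ST1 transcript, so these are not shown.
C1orf116: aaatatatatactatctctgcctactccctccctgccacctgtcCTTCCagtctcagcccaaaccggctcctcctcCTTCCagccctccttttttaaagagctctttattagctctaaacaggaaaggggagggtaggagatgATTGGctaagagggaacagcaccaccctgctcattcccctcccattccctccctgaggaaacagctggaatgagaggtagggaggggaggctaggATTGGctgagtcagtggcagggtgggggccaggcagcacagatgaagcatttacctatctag
KCNN2: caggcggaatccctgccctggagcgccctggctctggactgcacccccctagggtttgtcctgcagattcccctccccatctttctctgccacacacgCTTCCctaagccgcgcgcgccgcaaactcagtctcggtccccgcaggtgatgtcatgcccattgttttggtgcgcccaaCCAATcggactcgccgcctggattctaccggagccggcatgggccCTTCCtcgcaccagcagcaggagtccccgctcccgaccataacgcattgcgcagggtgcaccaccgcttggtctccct
AADAT: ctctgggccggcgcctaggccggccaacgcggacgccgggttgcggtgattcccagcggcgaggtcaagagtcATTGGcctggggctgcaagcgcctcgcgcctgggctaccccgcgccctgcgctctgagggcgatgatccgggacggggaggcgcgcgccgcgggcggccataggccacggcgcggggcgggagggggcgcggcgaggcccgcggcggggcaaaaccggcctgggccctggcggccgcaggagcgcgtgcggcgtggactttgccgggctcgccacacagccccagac

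The C1orf116 window held CCAAT 2 times and GGAAG 2 times, the KCNN2 window held CCAAT 1 time and GGAAG 2 times, and the AADAT window held CCAAT 1 time. Of all 35116 windows, 34.6% hold CCAAT and 71.9% hold GGAAG, so both are common. The FOXA motif TGTTTAC (3.42% of all windows), the cyclic AMP element TGACGTCA (1.85%) and its core TGACG (24.6%, which holds every full element), the E-box CACGTG (7.26%) and TATAAA (11.5%) were in none of the 3. Of the windows not shown, 1 of AADAT held TGACG 1 time and each of the 2 of AADAT held GGAAG 2 times. The HS3ST1 window held none of the motifs named here, CCAAT and GGAAG among them. These are letter matches on both strands in 300 bases, and more distant enhancers lie outside the windows.

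**Figure D1:**
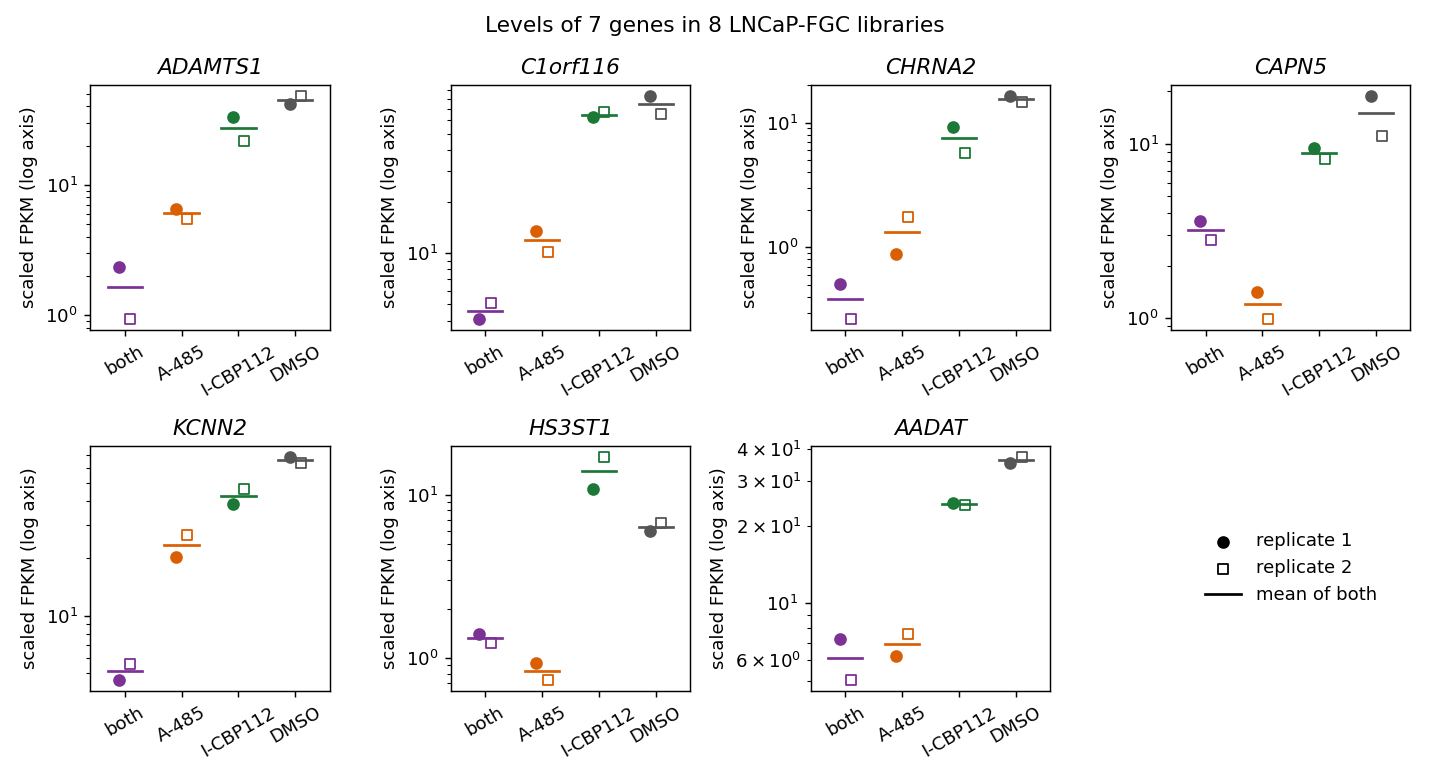
Scaled FPKM (log axis) of the 7 genes in each library, by treatment, where filled circles are replicate 1, open squares replicate 2 and lines the mean of both. All libraries with both inhibitors or A-485 lie under all DMSO libraries for every gene, while both lies under A-485 for ADAMTS1, C1orf116, KCNN2 and CHRNA2 and above it for CAPN5 and HS3ST1. The CHRNA2 levels with both and A-485 stand on few fragments.

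The 7 genes were all lower with A-485 than with DMSO, as chosen, and differed in where their values with both inhibitors lay relative to A-485. Against the DMSO mean, both inhibitors left between 2.50% (CHRNA2) and 21.5% (CAPN5) of the level. A-485 left between 8.04% (CAPN5) and 35.4% (KCNN2). The median log2 fold change of the 7 was -3.47 with both and -2.55 with A-485, where the median of all genes tested was 0.04 and 0.01. Those 2 medians are part of how the genes were chosen. With I-CBP112 alone 6 of the 7 lay below the DMSO mean and HS3ST1 above it.

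ADAMTS1, the secreted protease, had 2.35 and 0.933 scaled FPKM with both inhibitors, 6.56 and 5.50 with A-485, 33.0 and 21.8 with I-CBP112 and 41.6 and 48.0 with DMSO (replicate 1 first). The 4 groups did not overlap. Its log2 fold change was -4.17 ± 0.30 (SE) with both and -2.70 ± 0.30 with A-485, ranks 3 and 7 from the lowest of the 11867 genes. The difference between both and A-485 was -1.46 ± 0.30. The level with both rests on about 79.1 and 51.3 fragments, against about 2217 and 673 with DMSO. The 5191-base transcript ADAMTS1-201 showed the same order, with 0.957 and 0.933 with both, 4.83 and 5.50 with A-485, 23.6 and 21.8 with I-CBP112 and 29.4 and 36.3 with DMSO. The rest of the sum was the 405-base ADAMTS1-205, at 1.39 and 6.89e-06 with both and 12.2 and 11.7 with DMSO, so the 2 libraries with both differ in the sum mainly through that short transcript.

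C1orf116, also called SARG, had 4.10 and 5.09 scaled FPKM with both, 13.5 and 10.2 with A-485, 62.6 and 66.6 with I-CBP112 and 82.9 and 65.3 with DMSO. I-CBP112 and DMSO overlapped, and the other neighbouring groups did not. Its log2 fold change was -3.74 ± 0.21 with both and -2.55 ± 0.21 with A-485. With I-CBP112 it was -0.19 ± 0.21, the smallest of the 7 in size. Its 2 transcripts, of 5493 and 3142 bases, each followed the gene: C1orf116-201 had 1.77 and 2.55 with both against 45.1 and 42.8 with DMSO, and C1orf116-202 had 2.33 and 2.54 against 37.8 and 22.5.

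KCNN2, the calcium-activated potassium channel, had 4.59 and 5.57 scaled FPKM with both, 20.3 and 26.6 with A-485, 38.6 and 46.4 with I-CBP112 and 68.7 and 63.6 with DMSO. The 4 groups did not overlap and each step was in the same direction. It had the smallest log2 fold change of the 7 with A-485, -1.47 ± 0.20, and ranked 138 from the lowest, but with both it was -3.47 ± 0.20 and ranked 11. The difference of both from A-485, -1.999 ± 0.20, was the largest of the 7 in size. Its mean was 7.68% of DMSO with both, against 35.4% with A-485 alone. Its leading transcript, KCNN2-201 of 2512 bases, had 3.76 and 2.04 with both, 15.1 and 13.9 with A-485, 30.2 and 29.5 with I-CBP112 and 48.6 and 50.4 with DMSO. The annotation places an antisense gene, AC010230.1, on the opposite strand of KCNN2, and the sources used here do not state whether the libraries keep strand.

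CHRNA2, the nicotinic receptor subunit, was lowest of the 7 against its DMSO level with both. It had 0.510 and 0.266 scaled FPKM with both, 0.883 and 1.76 with A-485, 9.25 and 5.76 with I-CBP112 and 16.3 and 14.7 with DMSO, and the 4 groups did not overlap. These low levels stand on few fragments, about 10.5 and 4.57 with both and 55.5 and 9.99 with A-485. Its log2 fold change was -3.58 ± 0.28 with both and -2.85 ± 0.28 with A-485. The pseudocount of 1 understates a change at such levels: with 0.1 the value with both was -5.04, and between both and A-485 it was -1.52 in place of -0.72. Its 2 main transcripts held unequal shares. CHRNA2-207 (2497 bases) had 1.97 and 1.27 with I-CBP112 against 6.57 and 9.03 with DMSO, and CHRNA2-202 (4067 bases) had 5.42 and 3.91 against 7.31 and 5.65. With both, CHRNA2-202 was at 4.72e-05 and 2.82e-06, far below what 1 fragment is worth, and with A-485 it was at 0.470 and 0.000942. CHRNA2-207 had 0.227 and 0.146 with both and 0.0921 and 0.621 with A-485, so there these groups overlapped. In A-485 replicate 2 the short CHRNA2-208 (576 bases) and CHRNA2-204 (578 bases) added 0.571 and 0.567. These stand on about 1.49 and 1.48 fragments, so the gap between both and A-485 in the sum rests partly on them. The division of fragments among transcripts is a model estimate of the authors' software.

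AADAT, the aminotransferase, had 7.24 and 5.05 scaled FPKM with both, 6.24 and 7.62 with A-485, 24.7 and 24.2 with I-CBP112 and 35.2 and 37.2 with DMSO. Both and A-485 overlapped, with a difference of -0.16 ± 0.20 on the log2 scale, and the 2 replicates differed in its sign (0.19 and -0.51). Without replicate 2 of both it was 0.06, and with values as deposited 0.08. Against DMSO the values were -2.40 ± 0.20 with both and -2.24 ± 0.20 with A-485. In AADAT-201 (2261 bases), which held most of its level, the values were 3.40 and 4.55 with both, 5.19 and 7.28 with A-485, 19.0 and 19.0 with I-CBP112 and 26.4 and 35.0 with DMSO, and there the replicates with both lay under those with A-485.

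CAPN5, the calpain, was higher with both inhibitors than with A-485 alone. It had 3.62 and 2.83 scaled FPKM with both, 1.42 and 0.990 with A-485, 9.51 and 8.23 with I-CBP112 and 18.8 and 11.1 with DMSO, and no groups overlapped. The log2 fold change was -1.88 ± 0.27 with both, -2.82 ± 0.27 with A-485, and 0.94 ± 0.27 between both and A-485, with 0.94 in each replicate. The lower of the A-485 libraries holds only about 17.1 fragments of it. CAPN5-201 (4397 bases) carried the pattern, with 2.58 and 2.75 with both, 0.745 and 0.716 with A-485, 6.85 and 7.78 with I-CBP112 and 14.0 and 7.46 with DMSO. The DMSO libraries differed most between replicates, and for this transcript I-CBP112 and DMSO overlapped. OMP, which overlaps CAPN5 on the same strand, had a mean of 0.120 scaled FPKM with DMSO.

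HS3ST1, the sulfotransferase, had 1.41 and 1.24 scaled FPKM with both, 0.928 and 0.736 with A-485, 10.9 and 17.0 with I-CBP112 and 5.98 and 6.74 with DMSO, and no groups overlapped. With both, it was above A-485 by 0.35 ± 0.24 on the log2 scale, and its values against DMSO were -1.66 ± 0.24 with both and -2.01 ± 0.24 with A-485. It was the 1 gene of the 7 with a higher mean with I-CBP112 than with DMSO, but that rested on a short transcript. HS3ST1-202 (496 bases) had 8.99 and 14.5 scaled FPKM with I-CBP112 against 3.93 and 0.0333 with DMSO, while HS3ST1-201 (8031 bases), with most of the fragments, had 1.76 and 2.50 against 2.06 and 2.27 and these 2 groups overlapped. In DMSO replicate 2 most of the sum was HS3ST1-203 (491 bases), at 4.43, which is about 7.59 fragments. HS3ST1-201 had 0.411 and 0.558 with both and 0.255 and 0.196 with A-485, below DMSO in every library. When transcripts were weighted by their fragments, a choice made after seeing these values, the log2 fold change of the gene with I-CBP112 was 0.20 ± 0.20 in place of 0.99 ± 0.24.

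**Figure D2:**
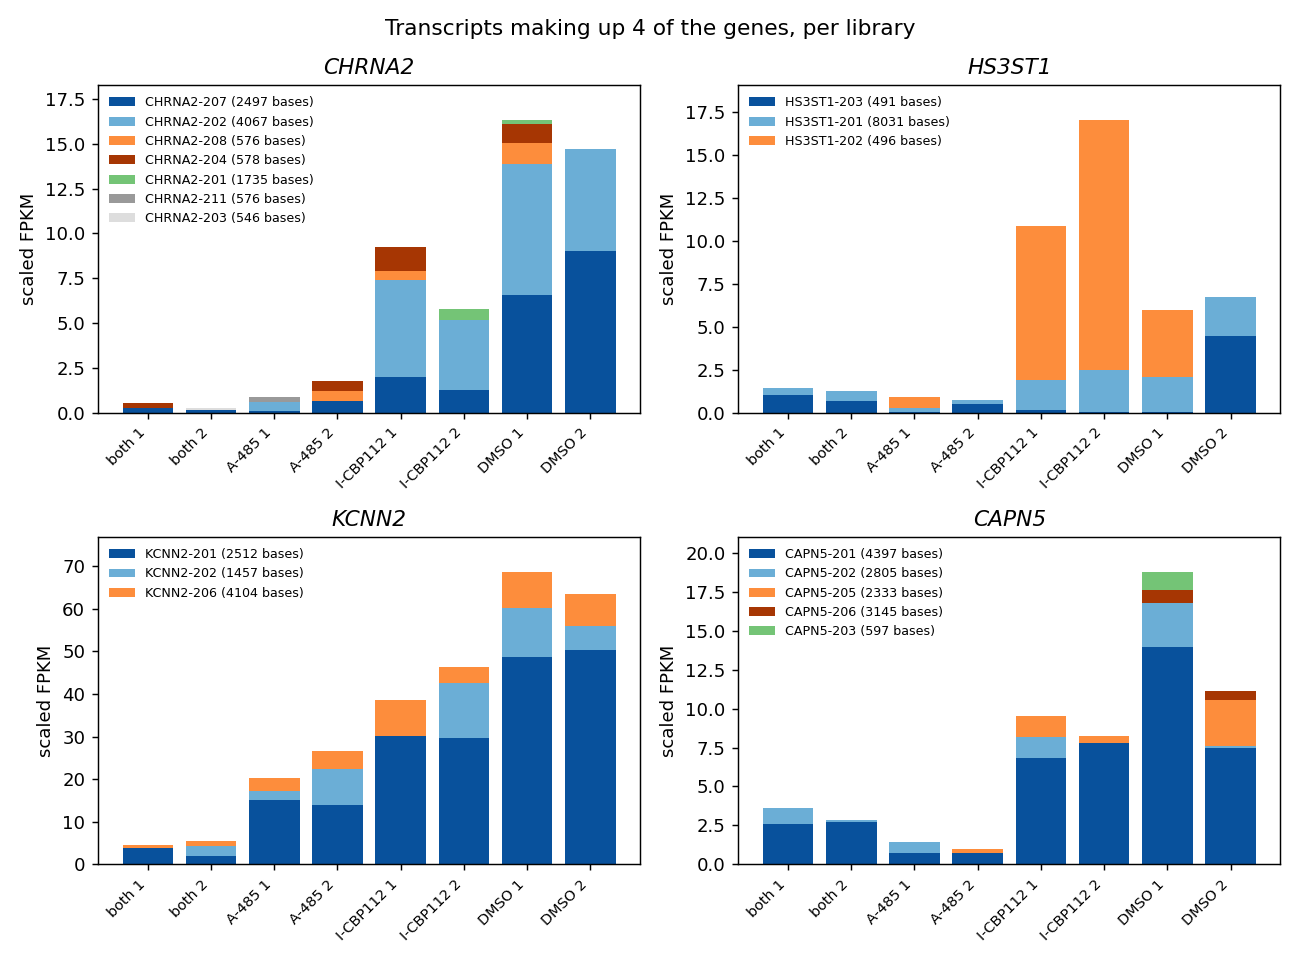
Scaled FPKM of each transcript of CHRNA2, HS3ST1, KCNN2 and CAPN5, stacked, in each library, with transcript lengths in the legends. The I-CBP112 bars of HS3ST1 are mostly the 496-base transcript, and those of KCNN2 are mostly KCNN2-201 as in DMSO.

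With both inhibitors, values were thus lower than, overlapping or higher than with A-485 alone, depending on the gene. Departure from additivity on the log2 scale, the change with both less the sum of the 2 single changes, was -1.37 ± 0.28 for KCNN2, -1.01 ± 0.29 for C1orf116 and -0.75 ± 0.42 for ADAMTS1. It was 1.59 ± 0.38 for CAPN5, 0.39 ± 0.28 for AADAT and 0.27 ± 0.39 for CHRNA2. For HS3ST1 it was -0.65 ± 0.33, and 0.38 with fragment weighting, so its sign rests on the short transcript. Fragment weighting gave -1.25 for ADAMTS1. Leaving out 1 library moved several of these by over 1.5 times. ADAMTS1 was at -0.35 without replicate 2 of both, -0.46 without I-CBP112 replicate 1 and -1.14 without replicate 1 of both. AADAT was at 0.16 without replicate 1 of both and 0.61 without replicate 2. HS3ST1 was at -0.35 without I-CBP112 replicate 2. CHRNA2 ranged from -0.04 without I-CBP112 replicate 2 to 0.57 without I-CBP112 replicate 1, and was -0.44 with a pseudocount of 0.1, so its sign depended on these choices. For scale, the same quantity was -2.57 ± 0.26 for KLK3 and -1.23 ± 0.29 for MYC, a transcription factor of cell growth. KLK3 had 51.4 and 50.5 scaled FPKM with both and 2231 and 2006 with DMSO, and MYC had 19.1 and 14.7 with both and 241 and 198 with DMSO.

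**Figure D3:**
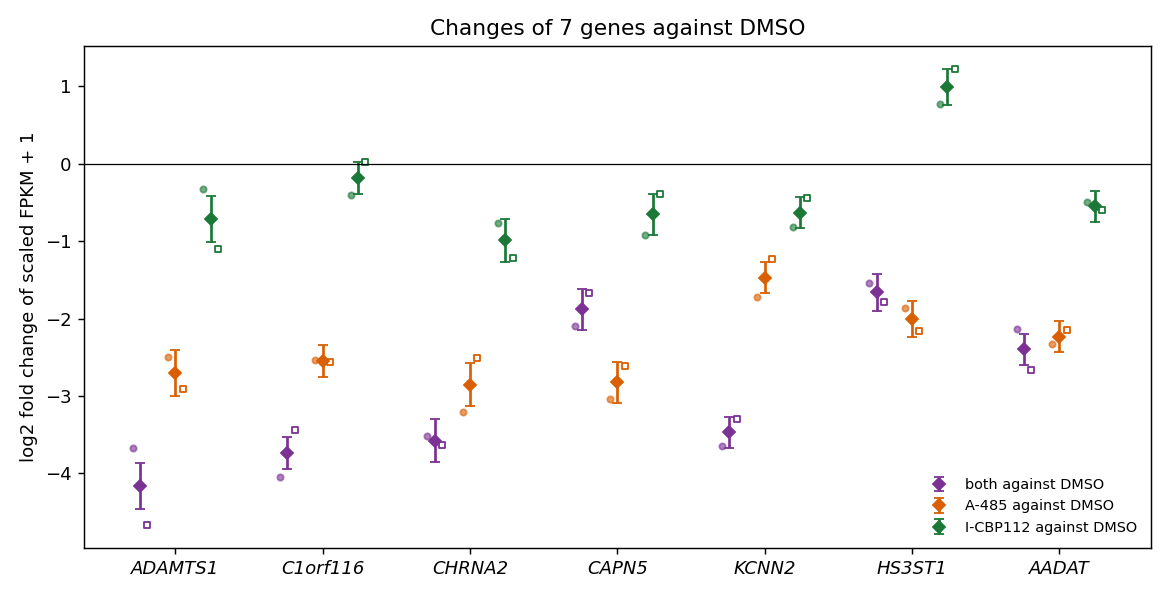
Log2 fold change of scaled FPKM + 1 against DMSO for each gene, with both, A-485 and I-CBP112 side by side. Diamonds with bars are the mean and its SE, small circles replicate 1 and small squares replicate 2; the purple diamonds run from -4.17 (ADAMTS1) to -1.66 (HS3ST1).

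The comparison of I-CBP112 with DMSO did not enter the choice of the genes, although it shares its DMSO libraries with the comparisons that did. In the limma fit over 11867 genes, 0 of the 7 passed an adjusted p (Benjamini-Hochberg) of 0.05, and 0 of all genes did: 0% lower and 0% higher. At an unadjusted p under 0.05 it was 6 of the 7, against 1313 of all genes (11.1%). Of these 6, HS3ST1 was higher and the other 5 lower, and as the genes were chosen for being low against the same DMSO libraries, nothing is read from that count. CHRNA2 had -0.99 ± 0.28 (limma adjusted p = 0.323), ADAMTS1 -0.71 ± 0.30 (0.439), CAPN5 -0.65 ± 0.27 (0.429) and KCNN2 -0.63 ± 0.20 (0.353). AADAT had -0.55 ± 0.20 (0.385) and HS3ST1 0.99 ± 0.24 (0.291). C1orf116 had the largest adjusted p, 0.769. The median of the 7 was -0.63 and that of all genes 0.01. With the replicate number as a block the count stayed at 0 of all genes, with 2146 at an unadjusted p under 0.05. Over the 19 alternatives the lowest adjusted p of any of the 7 was 0.0780, for CHRNA2 and KCNN2. The means of the 7 with I-CBP112 lay between 48.4% (CHRNA2) and 219% (HS3ST1) of DMSO.

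Few genes of the same families and pathways passed the test. The 6 lists were written from textbook knowledge, but with earlier results of these data known. They hold 147 genes besides the 7, of which 60 could be tested. With A-485, 1 of the 60 was lower and 1 higher, where 3.23% of all genes were lower and 1.21% higher (383 and 144; 161 and 376 when libraries were scaled by their totals alone). With both, 2 were lower and 3 higher, against 7.13% lower and 3.38% higher (846 and 401, or 489 and 738 by totals alone). The counts of lower genes were under the background share and those of higher genes over it by no more than 1 gene. With the replicate block the counts were 4 lower and 2 higher with A-485, and 3 lower and 9 higher with both, and those over all genes were 1103 lower and 535 higher with A-485, and 1440 lower and 949 higher with both. With I-CBP112, 0 of the 60 were called. The median log2 fold change of the 60 was 0.11 with both and 0.01 with A-485, beside 0.04 and 0.01 over all genes tested.

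In the list of calcium-activated potassium channels and calmodulin, beside KCNN2, 9 genes were tested and 2 were lower. KCNMA1, the large-conductance channel of the same class, had 5.61 and 5.74 scaled FPKM with both, 5.91 and 3.28 with A-485, 13.5 and 11.6 with I-CBP112 and 22.9 and 20.1 with DMSO. It fell with A-485 (log2 fold change -2.05 ± 0.24, limma adjusted p = 0.00680) and with both (log2 fold change -1.75 ± 0.24, limma adjusted p = 0.00490). Unlike KCNN2, its A-485 and both libraries overlapped. Its call with A-485 was lost without A-485 replicate 2 (limma adjusted p = 0.0511), while that with both held without any 1 of the 8 libraries. LRRC26, an accessory subunit of the same large-conductance channel, had 75.3 and 59.98 with both and 273 and 152 with DMSO, and fell with both (log2 fold change -1.59 ± 0.30, limma adjusted p = 0.0174), a call lost without DMSO replicate 1 or either library with both (highest adjusted p = 0.110).

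The remaining calls were in the other direction. ADAMTS13, a plasma protease of the ADAMTS family, had 11.2 and 15.2 scaled FPKM with both, 8.97 and 9.56 with A-485 and 2.82 and 4.06 with DMSO, and rose with both (log2 fold change 1.67 ± 0.26, limma adjusted p = 0.00716) and with A-485 (log2 fold change 1.22 ± 0.26, limma adjusted p = 0.0401). The call with A-485 was lost in 5 of the 8 fits without 1 library, to an adjusted p of at most 0.213, and that with both only without replicate 2 of both (0.0600). None of the other 8 genes tested of the ADAM, ADAMTS and TIMP list passed, but with the replicate block ADAM10, a membrane protease, did with A-485 (log2 fold change 1.07, limma adjusted p = 0.0389). AASS, the enzyme that starts lysine breakdown upstream of AADAT, rose with both (log2 fold change 1.01 ± 0.21, limma adjusted p = 0.0218), at 5.30 and 4.76 scaled FPKM against 1.88 and 2.10 with DMSO, a call lost without DMSO replicate 1 or either library with both (highest adjusted p = 0.155). HS6ST1, which adds sulfate at the 6-O position of heparan sulfate, rose with both (log2 fold change 0.66 ± 0.16, limma adjusted p = 0.0374) at 27.4 and 29.96 against 18.7 and 16.9, and lost its call in all 8 fits without 1 library. The lists of calpains (9 tested) and nicotinic receptor subunits (3 tested) had 0 called in either comparison. With the replicate block 3 calpains were higher with both, with limma adjusted p = 0.0146 for CAPN1 (log2 fold change 0.70), limma adjusted p = 0.0404 for CAPN2 (0.50) and limma adjusted p = 0.0346 for CAPN10 (0.63). With the block RIC3, a chaperone of nicotinic receptors, was also higher with both (1.06, limma adjusted p = 0.0295). ADAM10 and these 4 genes were named after their values were seen. Every family call made without the block was lost with values as deposited, without scaling.

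**Figure D4:**
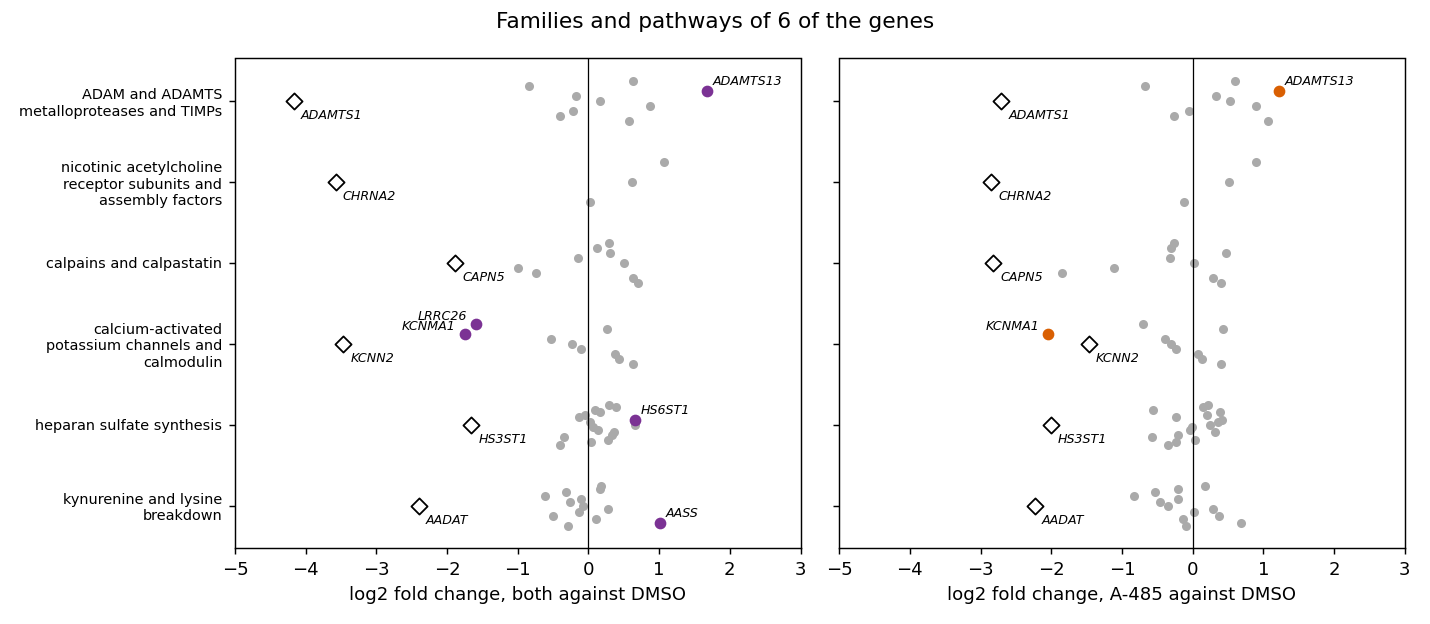
Log2 fold changes of the family and pathway genes with both (left) and with A-485 (right) against DMSO. Grey points did not pass the test, coloured points passed, and open diamonds mark 6 of the 7 genes, which lie left of every other gene in their rows except KCNN2 with A-485, which lies right of KCNMA1. The 7 genes were chosen for large falls in these comparisons, so the place of the diamonds is part of that choice.

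The profiles of the 7 over the 8 libraries were compared with all other genes by the root mean square difference of log2(scaled FPKM + 1), each gene centred on its own mean. ADAMTS1 and C1orf116 both lay near MYC, at 0.362 and 0.359, and CHRNA2 lay near ADAMTS1 (0.415). SLC43A1 (0.288) and SPON2 (0.337) lay near the median profile of the 7. KCNN2 was nearest to MCCC2 (0.209) and PRUNE2 (0.226), and AADAT to TRPM8 (0.155) and PMEPA1 (0.234). TRPM8 averaged only 0.0372 scaled FPKM with both, 0.225 with A-485, 3.13 with I-CBP112 and 4.46 with DMSO. The pseudocount of 1 understates its fall at such levels, so its small distance from AADAT does not mean that both fell by like shares. CAPN5 was nearest to ASNS (0.323) and EDA (0.343), and HS3ST1 to TMEFF2 (0.416) and ARG2 (0.473), which had the largest distances. Among the 7 themselves, the closest pair was ADAMTS1 and C1orf116 (0.40) and the farthest CAPN5 and KCNN2 (1.08). These distances rest on 8 libraries of 4 groups and say nothing of shared control.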

How the data were processed

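RNA of LNCaP-FGC cells was sequenced in 8 libraries, 2 in each of 4 groups given both inhibitors, A-485, I-CBP112 or DMSO. The authors deposited 1 table of FPKM for 81591 transcripts, although it is named as counts: 78.3% of its values are not whole numbers. Per the submitters' processing notes the genome build was hg19 (GRCh37) and the tools included Cufflinks, STAR, DESeq2 and DESeq, with no role or version stated. The table pairs transcripts with gene symbols, and 74209 transcripts matched GENCODE 29. Transcripts were summed per gene, libraries were brought to a common sum of 1000000 and then to a trimmed mean of ratios (30% of ratios and 5% of levels trimmed), and genes with a scaled FPKM of at least 1 in at least 2 libraries were kept (11867). limma 3.58.1 (R 4.3.3, trend and robust) was fitted to log2(scaled FPKM + 1) with 1 mean per group and 4 residual degrees of freedom, and p-values were adjusted by Benjamini-Hochberg over all genes tested, with a threshold of 0.05. Errors are standard errors of that fit. Fold changes are on the log2(value + 1) scale and understate the change of low genes.

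The depth is not in the table. In long transcripts alone in their gene (at least 3000 bases), low values were taken as multiples of what 1 fragment is worth, which gave the approximate fragments. That worth was chosen per library to favour whole numbers among 127 to 141 such values. Of these 80.2% to 85.3% came out whole within 0.1, a share that the choice itself raised. Since this is not nearly all, no count test was run. Fragment numbers are estimates and bear on counting error only, while the standard errors measure the spread between libraries. The descriptions give all replicate 1 libraries 1 shared prefix and all replicate 2 libraries another, and what it stands for is not stated; the replicates' deviations correlated in all 6 pairs of groups (0.145 to 0.425), so the numbers were taken to pair the libraries and values with the replicate block stand beside results they change.

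The members and lists were chosen with earlier results of these data known. The genes named are the 7, KLK3 and MYC, the family genes that passed the test, and per gene the 2 with the nearest profile (3 for the median profile), of which 1 gene is not reported here. The fit was tested before use on simulated data with independent libraries, so that test does not cover the correlated deviations of the replicates. Promoter letters are RefSeq's, in GRCh38.p14, and no coordinates of the table's build are given.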

Additional observations from a re-analysis of the deposited data

How the results depend on the processing

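Of the values of the 7 genes over 19 alternatives, 2 of them chosen after seeing the data (weighting transcripts by fragments, with and without the replicate block), all 133 with I-CBP112 kept their side of the threshold and their direction. With A-485 and with both, 24 of 133 each moved by more than the replicate spread and all 266 stayed below 0. The departure from additivity of HS3ST1 reversed, to 0.38 under both added alternatives. Values smaller than their error also changed sign: the departure of CHRNA2 (main value 0.27; -0.44 with pseudocount 0.1, and down to -0.04 without 1 library) and the difference of AADAT between both and A-485 (main value -0.16; 0.08 as deposited and 0.06 without replicate 2 of both). The median of the 7 was -2.80 (pseudocount 0.1), -2.22 (scaling by total only) and -1.92 (as deposited) with A-485, and -2.35 as deposited with both. For both against A-485 it was -1.34 (pseudocount 0.1), -1.01 (pseudocount 0.5) and -0.34 (as deposited). Leaving out 1 library in turn gave medians of -2.62 to -2.36 with A-485, -3.54 to -3.35 with both, -0.63 to -0.54 with I-CBP112 and -0.99 to -0.44 for both against A-485.

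Calls over all genes moved more. With A-485 they were 1103 lower and 535 higher with the replicate block, 1786 and 1095 with block and fragment weighting, 721 and 412 with fragment weighting, 161 and 376 with scaling by total only, 0 and 0 as deposited, and 84 higher with no filter. With both they were 1440 lower and 949 higher with the block, 1999 and 1449 with block and fragment weighting, 722 higher with fragment weighting, 489 and 738 with scaling by total only, and 0 and 0 as deposited. With I-CBP112 the block with fragment weighting gave 34 and 14, and a filter of at least 5 gave 1 higher. Of the 60 family genes, the counts with A-485 were 4 lower and 2 higher (block), 6 and 8 (block and weighting), 2 higher (weighting), 0 higher (no filter) and 0 and 0 (as deposited). With both they were 9 higher (block), 5 and 11 (block and weighting), 8 higher (weighting), 6 higher (total only) and 0 and 0 (as deposited). Leaving out 1 library gave 15 to 650 lower and 0 to 680 higher with A-485, 236 to 795 lower and 37 to 470 higher with both, and 0 to 2 higher with I-CBP112; of the family genes 0 to 3 lower and 0 to 1 higher with A-485, and 1 to 3 lower and 0 to 2 higher with both. The causes were not tested. A library left out leaves 1 in its group, which is then assumed to vary like the other groups.

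Scaling by total only moved the median of all genes to 0.31 with A-485, 0.13 with I-CBP112 and 0.25 with both, and values as deposited to 0.37, 0.05 and 0.61. With 2 libraries a group and about 4450000 to 28400000 assigned fragments, CHRNA2 with both, and CHRNA2, CAPN5 and HS3ST1 in A-485 replicate 2, rest on fewer than 20 fragments.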
